A study of Mus musculus with 16 samples.

Results

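The nuclear genes of oxidative phosphorylation were followed through a striatal injury: the genes whose proteins, made in the cytosol, build the respiratory chain and the ATP synthase of mitochondria. They were taken by name, as the protein-coding rows of the read count table whose symbols begin with Nduf, Uqcr, Atp5, Cox4i, Cox5, Cox6, Cox7 or Cox8, together with Cycs, Cyc1 and Sdha to Sdhd. This gave 95 of 19457 genes, of which 38 belong to complex I, 8 to its assembly factors, 4 to complex II, 9 to complex III, 1 is cytochrome c, 18 belong to complex IV and 17 to complex V. Ndufa4 and Ndufa4l2 were counted with complex IV, where their proteins sit. All 95 passed the filter on low counts, and 8 had a mean under 5 CPM (read counts scaled to a common library size, with TMM factors). RNA came from mouse striatum of wild-type (WT) animals and of animals labelled GS, read here as the LRRK2 G2019S genotype of the series title, with a common kinase-activating change behind inherited Parkinson disease. In each genotype the tissue was either intact, without an injection, or had received 0.8 µl of 500 mM ATP on 1 side and was taken 6 h, 3 d or 15 d later. These 8 groups held 2 libraries each, 16 in all. The labels call the replicates biological. No source used here gives the strain, the age, the number of animals behind a library, or whether the GS change lies in the mouse gene or in a transgene with its own promoter. P-values therefore measure the spread between these libraries. The intact tissue had no needle and no vehicle injection, so needle, volume and ATP cannot be told apart in any comparison with it.

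Complexes I and II pass electrons from NADH and succinate to ubiquinone, complex III passes them to cytochrome c, and complex IV passes them to oxygen. Complexes I, III and IV pump protons while doing so, and complex V, the ATP synthase, uses the returning protons to make ATP. Neurons depend on this supply for ion pumping and synaptic transmission, and the subunits come from both the nuclear and the mitochondrial genome, which have to be expressed in step. Several complex IV subunits, and subunit c of complex V, exist as alternative copies from separate genes, some with a muscle or testis form.

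Promoters are shown for a few of these genes because many members were lower together after injury while isoform partners moved in opposite directions. RefSeq promoter sequences (GRCm38.p6) were matched for 77 of the 95 genes. The windows are the 120 bases before the annotated start, 5′ to 3′ on the gene's strand, with matches to an NRF1 motif (GCGC, any base, then TGCGC), an ETS motif (CCGGAAG) or a YY1 motif (AAGATGGCG) on either strand in capitals. Cox6a1 (chr5:115348959-115349078, minus strand), Cox6b1 (chr7:30626115-30626234, minus strand) and Ndufs5 (chr4:123718187-123718306, minus strand) were lower at all stages after injury. At 6 h none of them passed once any 1 of the libraries compared was left out. Cox6b2 (chr7:4753095-4753214, minus strand), Atp5g2 (chr15:102671048-102671167, minus strand) and Ndufaf4 (chr4:24897963-24898082, plus strand) were higher at 1 or more stages.
Cox6a1: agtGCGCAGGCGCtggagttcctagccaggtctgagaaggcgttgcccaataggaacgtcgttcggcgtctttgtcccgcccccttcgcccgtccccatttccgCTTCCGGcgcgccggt
Cox6b1: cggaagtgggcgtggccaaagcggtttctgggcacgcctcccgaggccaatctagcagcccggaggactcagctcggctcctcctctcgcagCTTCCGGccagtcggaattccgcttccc
Ndufs5: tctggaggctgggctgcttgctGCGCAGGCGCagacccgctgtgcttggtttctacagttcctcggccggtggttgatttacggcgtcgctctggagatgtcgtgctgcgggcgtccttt
Cox6b2: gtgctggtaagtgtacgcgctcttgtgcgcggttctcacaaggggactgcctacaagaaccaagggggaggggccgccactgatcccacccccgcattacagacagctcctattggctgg
Atp5g2: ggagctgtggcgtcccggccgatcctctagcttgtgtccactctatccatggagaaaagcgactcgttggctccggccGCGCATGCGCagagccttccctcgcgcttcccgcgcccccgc
Ndufaf4: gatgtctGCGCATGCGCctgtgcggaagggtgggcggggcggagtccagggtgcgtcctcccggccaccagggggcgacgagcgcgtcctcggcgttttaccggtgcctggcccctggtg
The Cox6a1 window held an NRF1 and an ETS match, that of Cox6b1 an ETS match, and those of Ndufs5, Atp5g2 and Ndufaf4 an NRF1 match. The Cox6b2 window had no match. Over the whole promoter entry (250 bases before to 50 after the start), an NRF1 match was found in 24.7% of the 77 genes and in 9.5% of 13628 genes of the count table with an entry. An ETS match was found in 24.7% against 16.5%, and a YY1 match in 10.4% against 2.80%. Matches to the GC box GGGCGG were found in 46.8% against 62.2%, and to the E-box CAGCTG in 6.49% against 18.6%. NRF1 matches were found in 13 of 52 members that fell at 15 d and in 5 of 23 that did not pass. In the same order, ETS matches were in 13 and 6, YY1 in 4 and 4, the GC box in 26 and 8, and the E-box in 5 and 0. Of 2 members that rose, 1 had an NRF1 match, 2 a GC box match and 0 any of the others. The motifs were not searched outside these windows, and a match is a description of letters, not a binding site.

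Library totals ran from 49220578 to 63948110 counts, of which the 95 genes took 0.732 to 0.871%. Markers of the labelled tissue were present, with all 10 genes of a striatal projection neuron list measured and summed levels of 8282 to 10900 CPM in intact libraries. Cortical excitatory neuron markers, which striatum should hardly hold, summed to 168 to 333 CPM in intact libraries, where WT replicate 1 was the highest. By the mean log2 level of these markers it scored 4.46, WT 6 h replicate 2 scored 4.03 and WT 15 d replicate 1 scored 3.62, above all other libraries. Counts of members that passed are therefore also given with these 3 WT libraries left out. They are called below those with most cortical marker RNA, or cortical-marker-rich, by this score alone. By summed level WT 15 d replicate 1, at 174.5 CPM, lay below WT 6 h replicate 1, at 205.6 CPM. Across genes, which are no independent replicates, log2 levels of a group's libraries correlated at 0.995 to 0.998. The lowest count anywhere in the table is 1, so genes silent in a library are not analysed here.

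The median level of the 95 genes was lower in every injured library than in the mean of the intact ones. The median over the genes of log2 CPM minus the intact mean was -0.03 to 0.04 in the 4 intact libraries, -0.16 to -0.07 at 6 h, -0.22 to -0.07 at 3 d and -0.23 to -0.13 at 15 d. The intact libraries did not overlap with any later stage, and the 12 injured libraries overlapped with each other. Replicates of a group differed in this median with a pooled SD of 0.05. At 3 d the span came from GS replicate 2, at -0.22, against -0.10 and -0.07 in WT and -0.08 in GS replicate 1. The shift was small, about 8.16% lower at 6 h, 7.73% at 3 d and 11.9% at 15 d for the median gene in the fit over both genotypes. In these bulk samples, fewer cells of a type and less RNA per cell cannot be told apart.

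**Figure D1:**
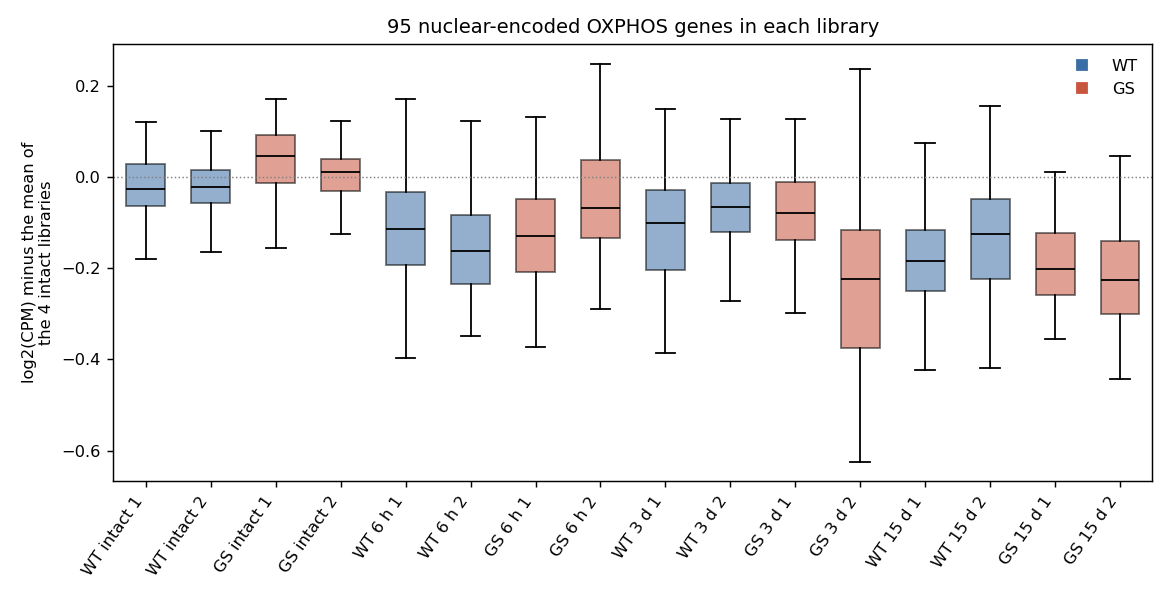
Boxes show log2 CPM of the 95 genes minus each gene's mean over the 4 intact libraries, for each of the 16 libraries (vertical axis, log2 units; line, median; box, quartiles; whiskers within 1.5 box lengths, outlying genes not drawn). Medians lie at -0.03 to 0.04 in intact libraries and below 0 in all 12 injured ones, and GS 3 d replicate 2 lies lowest at its stage.

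Each time point was compared with intact striatum in edgeR, averaged over the 2 genotypes (4 libraries against 4), with Benjamini-Hochberg adjusted p under 0.05 over 18813 genes. Values written as a ± b are log2 fold changes with standard errors. All of these comparisons share the same intact libraries. At 6 h, 29 members fell and 1 rose, or 31.6% of members, against 21.2% of all genes tested. In the lower direction alone the shares were 30.5% of members and 9.73% of all genes. The members' median log2 fold change was -0.12, against -0.0028 over all genes, and 79 of 95 members lay below 0. The 4 libraries at 6 h were all below the 4 intact ones for 30 members and all above for 2, against 11.4% and 12.9% of all genes. The 6 h count depended on single libraries: 5 members passed without WT 6 h replicate 2 or GS 6 h replicate 1, 9 without replicate 1 of either intact group, 12 and 13 without replicate 2 of GS and WT intact, 15 without WT 6 h replicate 1 and 17 without GS 6 h replicate 2. Only 2 passed without the 3 WT libraries with most cortical marker RNA.

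Complex IV held 10 of the 29 members that fell at 6 h, of 18, with a median of -0.19. Complex V held 8 of 17, complex I 7 of 38, complex III 2 of 9, the complex I assembly factors 1 of 8, and complex II none of 4. Among members that passed, the largest fall was that of Ndufaf8, an assembly factor that works with Ndufaf5 on the core subunit Ndufs7. It read 9.60 and 9.24 CPM in WT intact and 9.47 and 9.89 CPM in GS intact libraries, and 6.96, 7.49, 6.87 and 8.15 CPM at 6 h, with no overlap (-0.38 ± 0.11, edgeR adjusted p = 0.0208). Uqcr11, a small subunit of complex III, was at 71.4 to 80.8 CPM in intact libraries and 57.9 to 65.4 CPM at 6 h (-0.28 ± 0.09, edgeR adjusted p = 0.0379). Atp5e, the epsilon subunit of the ATP synthase stalk, was at 31.3 to 36.6 CPM and then 25.02 to 36.0 CPM, where GS replicate 2 at 6 h overlapped the intact libraries (-0.26 ± 0.08, edgeR adjusted p = 0.0294). Small accessory subunits of complex I also fell, among them Ndufb7 (-0.25 ± 0.07), Ndufs5 (-0.24 ± 0.08) and Ndufa1 (-0.23 ± 0.07), and complex III added Uqcrq (-0.23 ± 0.07).

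Uqcrc2, a large matrix-facing core subunit of complex III, was the member that rose at 6 h. It read 129 and 134 CPM in WT and 131 and 134 CPM in GS intact libraries, then 140 and 144 CPM in WT and 152 in both GS libraries at 6 h (0.15 ± 0.04, edgeR adjusted p = 0.021). The groups did not overlap, and the 4 libraries at 15 d lay lower, at 113 to 129 CPM. The 6 h call of Uqcrc2 was lost in 7 alternatives, among them either GS 6 h library or the 3 WT libraries left out. Exons of Pdzd9, on the opposite strand, cover 504 of its 1896 exonic bases. Pdzd9 did not pass at 6 h (-0.24, edgeR adjusted p = 0.541). Among the 7 nuclear-encoded core subunits of complex I, which carry the flavin and the iron-sulphur clusters, none passed at 6 h, with a median of -0.01, and 7 of 31 other subunits fell. This grouping, like those of complexes III and V that follow, was made after values were seen. By other tools the whole-set count at 6 h was 34 in DESeq2 and 29 in limma-voom.

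The members that fell at 6 h were mostly those with short transcripts. Median transcript lengths could be had for 93 members, and 14 of 27 members under 600 bases fell, 11 of 30 between 600 and 1000 bases, 3 of 27 between 1000 and 2000 bases and 1 of 9 at 2000 bases and over. Across members the Spearman correlation of length with log2 fold change came to 0.55 for 6 h, 0.19 for 3 d and 0.10 for 15 d, described across genes of the same libraries. It was 0.58 at 6 h over the 81 members at a mean of 20 CPM or more. The same relation was weaker in other genes at 6 h. It came to 0.35 over 94 genes of a cytosolic ribosome list and 0.20 over 7627 genes at 20 CPM or more that are not members. The ribosome list was taken here with the S6 kinase symbols that its letters also catch, and the correlation was not computed without them. Of those 7627 genes, the 51 with transcripts under 600 bases had a median of -0.15 at 6 h, and 12 of the 51 fell. The 23 members at 20 CPM or more and that short had a median of -0.18, and 13 of them fell. The part of transcript length, or of library preparation acting on short transcripts, in the 6 h result was not tested.

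**Figure D2:**
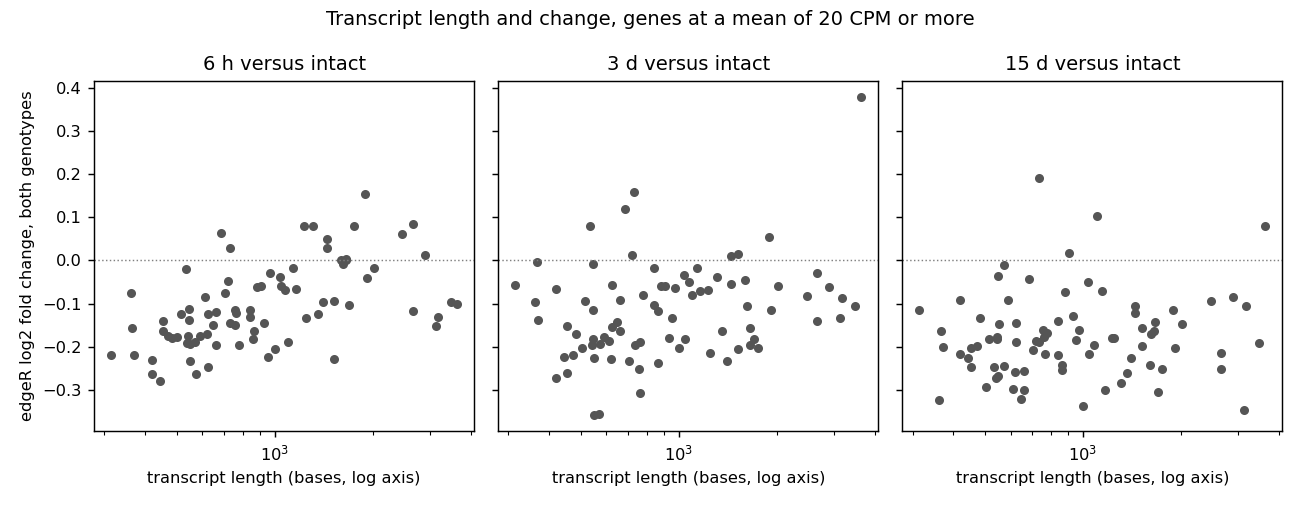
Each point is 1 of the 81 members at a mean of 20 CPM or more, with transcript length in bases on a log axis (horizontal) and the edgeR log2 fold change against intact over both genotypes (vertical), at 6 h, 3 d and 15 d. At 6 h the short transcripts lie lowest (Spearman 0.58), while at 15 d most points lie below 0 at short and long lengths alike (0.11).

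At 3 d, 38 members fell and 4 rose, 44.2% of members against 46.5% of all genes, so that the total share was near the background. Falls took 40.0% of members against 23.1% of all genes, and rises 4 of 95 members against 23.4% of all genes. The members' median was -0.12, against -0.02 over all genes, and 83 of 95 lay below 0. Without GS 3 d replicate 2, the library with the lowest levels, 23 members passed, and without GS intact replicate 1 or WT 3 d replicate 1, 27. Without the 3 WT libraries with most cortical marker RNA 26 passed.

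Complex IV had a median of -0.20 at 3 d, with 12 of 18 members that fell and 2 that rose. Complex I had 17 of 38 that fell (median -0.13), complex III 3 of 9, the assembly factors 3 of 8 with 1 that rose, complex V 2 of 17 with 1 that rose, and complex II none of 4. Cox8a, the form of this complex IV subunit found in most tissues, read 283 and 279 CPM in WT and 301 and 294 CPM in GS intact libraries, 236 and 240 CPM in WT at 3 d, and 238 and 190 CPM in GS at 3 d (-0.36 ± 0.06, edgeR adjusted p = 0.000171). All 12 injured libraries lay below the 4 intact ones for this gene. Ndufs7, the core subunit of complex I next to the ubiquinone site, was at 41.9 to 50.7 CPM in intact libraries and 30.2 to 44.4 CPM at 3 d, with GS replicate 2 lowest and WT replicate 2 within the intact range (-0.31 ± 0.08, edgeR adjusted p = 0.00741). The accessory subunits Ndufa1 (-0.27 ± 0.07) and Ndufb2 (-0.26 ± 0.06), and the assembly factors Ndufaf8 (-0.39 ± 0.11) and Ndufaf3 (-0.25 ± 0.07), fell as well.

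At 15 d the decrease took in most of the set. In all, 61 members fell and 3 rose, 67.4% of members against 47.2% of all genes, and the falls alone took 64.2% against 23.7%. The median was -0.18, against -0.02 over all genes, and 87 of 95 members lay below 0. All 4 libraries at 15 d lay below all 4 intact ones for 53 members and above for 3, against 20.8% and 21.5% of all genes. Leaving out single libraries gave 49 to 71 members, none of them a change of over 1.5 times, and leaving out the 3 WT libraries with most cortical marker RNA gave 39.

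Cox5a, a complex IV subunit on the matrix side, read 84.7 and 86.3 CPM in WT and 100.4 and 94.3 CPM in GS intact libraries, against 73.2 and 76.8 CPM in WT and 71.3 and 70.9 CPM in GS at 15 d, with no overlap (-0.32 ± 0.04, edgeR adjusted p = 3.01e-05). Cox7b was at 102 to 108 CPM and then 77.6 to 87.9 CPM (-0.34 ± 0.05, edgeR adjusted p = 3.85e-05). Ndufs4, an accessory subunit of complex I whose loss causes Leigh syndrome, was at 61.8 to 67.8 CPM and then 48.5 to 55.9 CPM (-0.31 ± 0.05, edgeR adjusted p = 0.000105). Atp5md, a membrane subunit linked to pairing of ATP synthases, was at 81.8 to 90.7 CPM and then 66.6 to 76.3 CPM (-0.32 ± 0.06, edgeR adjusted p = 0.000183). None of the last 3 genes overlapped between 15 d and intact libraries. The assembly factors Ndufaf2 (-0.36 ± 0.10) and Ndufaf5 (-0.30 ± 0.06) also fell.

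By complex at 15 d, 12 of 18 complex IV members fell (median -0.26, 2 rose), 25 of 38 in complex I (-0.18), 12 of 17 in complex V with 1 that rose, 6 of 9 in complex III, 4 of 8 assembly factors and 1 of 4 in complex II. Of the core subunits of complex I, 4 of 7 fell, against 21 of 31 other subunits, with medians of -0.18 in both. In complex V, 11 of 12 subunits outside the catalytic head and central stalk fell. Of the 5 subunits of the head and stalk 1 fell, Atp5b, the catalytic beta subunit, at 813 to 874 CPM in intact and 708 to 769 CPM at 15 d (-0.20 ± 0.05, edgeR adjusted p = 0.00319). Atp5a1, the alpha subunit that alternates with it in the head, did not pass (-0.09 ± 0.05).

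**Figure D3:**
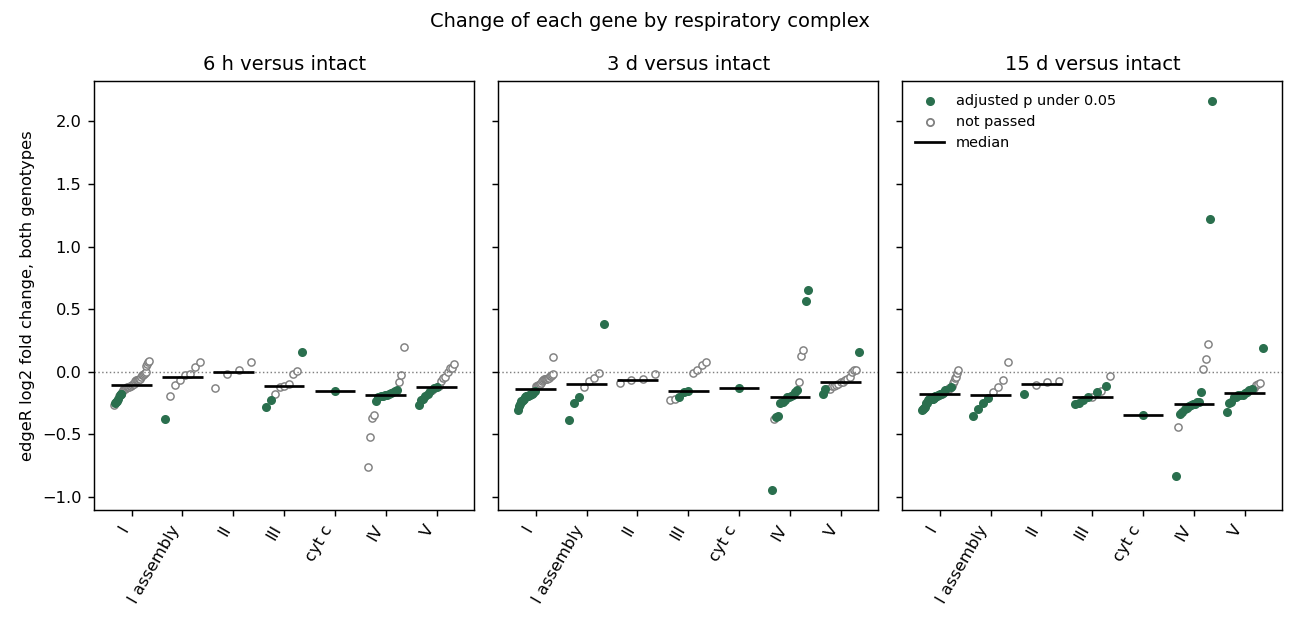
Each point is a gene, placed by complex (horizontal; I assembly, assembly factors of complex I; cyt c, cytochrome c) and by edgeR log2 fold change against intact over both genotypes (vertical), at 6 h, 3 d and 15 d. Filled points passed an adjusted p under 0.05, open ones did not, and bars are medians; complex IV medians are -0.19, -0.20 and -0.26, and the 2 highest points at 15 d are Cox6a2 and Cox6b2.

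Over the stages, 12 members fell at 6 h, 3 d and 15 d. They were Cox4i1, Cox5a, Cox6a1, Cox6b1, Cox6c, Cox7a2, Cox7b, Cox7c and Cox8a of complex IV, Ndufa1 and Ndufs5 of complex I, and Cycs. The 6 h calls of Cox6a1, Cox6b1 and Ndufs5 were each lost in 11 alternatives, also without any 1 of the libraries compared. That of Cox4i1 was lost in 10, of Cycs in 9 and of Ndufa1 in 7. Those of Cox6c and Cox7a2 were lost in 5 each, and of Cox7b and Cox8a in 1 each. How the 6 h calls of Cox5a and Cox7c fared in the alternatives is not given here. At 15 d alone 21 fell, at 3 d alone 4 and at 6 h alone 3, and 72 fell at 1 stage or more. The 12 members were 12.6% of the set, against 2.83% of all genes that fell at the 3 stages. The shares were 22.1% against 6.19% for 15 d alone, 4.21% against 6.00% for 3 d alone, 3.16% against 5.01% for 6 h alone, and 75.8% against 35.5% for 1 stage or more. No stage passed for 19 members in either direction, where 34.5% of all genes passed at none. Since the stages share the intact libraries, these overlaps are not independent of one another.

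Complex IV also held 2 of the 3 members that rose at 15 d. Cox6a2, the heart and skeletal muscle form of subunit VIa, which in brain is known from parvalbumin interneurons, rose strongly at 15 d (Gene ID 12862, chr7:128205435-128206366, GRCm38.p6). It read 1.05 and 0.995 CPM in WT and 1.09 and 0.872 CPM in GS intact libraries, 1.21 and 0.848 CPM in WT and 1.02 and 0.861 CPM in GS at 6 h. At 3 d it read 1.56 and 1.40 CPM in WT and 1.47 and 1.52 CPM in GS, and at 15 d 2.76 and 4.96 CPM in WT and 4.74 and 5.82 CPM in GS. All libraries at 3 d and 15 d lay above all intact ones, WT 15 d replicate 1 was the lowest of its stage, and the 6 h libraries overlapped with the intact ones. The change was 0.57 ± 0.20 at 3 d (edgeR adjusted p = 0.0328) and 2.17 ± 0.20 at 15 d, a 4.49-fold rise (edgeR adjusted p = 8.75e-07). The 3 d call was lost in limma-voom, with the cortical marker covariate (0.26), and without any 1 of 6 of the 8 libraries compared, WT 3 d replicate 2 and GS intact replicate 1 being the exceptions, and the 15 d call held under every alternative run.

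Cox6a2 overlaps another gene. In GENCODE M21 (GRCm38) the integrin gene Itgad runs over it on the opposite strand, and exons of both share 70 of the 680 exonic bases of Cox6a2, in its 3′ UTR (chr7:128205435-128205504). Itgad, a leukocyte integrin subunit of macrophages, read 0.748 and 0.695 CPM in WT and 0.547 and 0.855 CPM in GS intact libraries and 3.08, 6.77, 6.23 and 9.35 CPM at 15 d (3.12 ± 0.28, edgeR adjusted p = 8.75e-07). At 3 d it was at 0.549 to 0.960 CPM and did not pass (0.03 ± 0.30). The order of the 15 d libraries was similar in both genes, with WT replicate 1 lowest and GS replicate 2 highest. No source used here says whether counting used strand, so reads of the shared bases cannot be told apart, and reads from longer Itgad transcripts over the rest of Cox6a2 were not tested. Of 5 skeletal muscle markers only Acta1 was measured, and it fell (-0.90 ± 0.13 at 3 d, -0.78 ± 0.13 at 15 d). Of the 4 fast-spiking interneuron markers 3 fell at 15 d, Pvalb among them (-0.86 ± 0.27, edgeR adjusted p = 0.021).

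Cox6a1, the form of the same subunit in most tissues, went the other way. It read 201 and 209 CPM in WT and 232 and 220 CPM in GS intact libraries, 194 and 184 CPM in WT and 184 and 194 CPM in GS at 6 h. At 3 d the WT libraries were at 168 and 174 CPM and the GS ones at 186 and 146, and at 15 d they were at 177 and 191 CPM (WT) and 184 and 175 (GS). The 12 injured libraries were all lower than the intact ones. Cox6a1 fell at each stage, by -0.19 ± 0.06 (6 h), -0.36 ± 0.06 (3 d) and -0.24 ± 0.06 (15 d) (edgeR adjusted p = 0.0436, 0.000288 and 0.00477). Per length, Cox6a2 stayed the minor form: 1.48 ± 0.141 RPKM in intact libraries and 6.72 ± 1.90 RPKM at 15 d, against 378 ± 23.7 and 318.5 ± 12.4 RPKM for Cox6a1 (SD, n = 4 libraries over both genotypes). Its share of the pair, as RPKM, was 0.331 to 0.437% in intact libraries and 1.29 to 2.71% at 15 d.

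The forms of subunit VIb also moved in opposite directions. Cox6b2, known as the testis form (Gene ID 333182, chr7:4751792-4753094, GRCm38.p6), read 0.677 and 0.826 CPM in WT and 1.04 and 0.770 CPM in GS intact libraries, 0.870 and 0.523 CPM in WT and 1.56 and 1.00 CPM in GS at 6 h. The WT libraries were at 1.37 and 1.32 CPM at 3 d and the GS ones at 1.55 and 0.952, and at 15 d they were at 1.10 and 2.07 CPM (WT) and 2.17 and 2.50 (GS). At 15 d all 4 libraries were above the intact ones, by a narrow margin for WT replicate 1. It rose 2.32-fold at 15 d (1.22 ± 0.25, edgeR adjusted p = 0.00103). At 3 d the value was 0.66 ± 0.26 (edgeR adjusted p = 0.0475), and this call was lost in limma-voom, with the replicate block (0.65) and without most single libraries. Cox6b1, the common form, fell at 6 h (-0.17 ± 0.06), 3 d (-0.23 ± 0.06) and 15 d (-0.26 ± 0.06, edgeR adjusted p = 0.00117), from 120 to 138 CPM in intact libraries to 104 to 111 CPM at 15 d. Cox6b2 made up 0.677 to 0.938% of the pair per length in intact libraries and 1.32 to 2.76% at 15 d.

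Other minor forms of complex IV were measured at similarly low levels. Cox7b2, a testis-enriched form of subunit VIIb, rested on 10 to 54 counts per library and read 0.463 and 1.01 CPM in WT and 0.496 and 0.650 CPM in GS intact libraries, against 0.343, 0.262, 0.277 and 0.476 CPM for 3 d. The 15 d libraries read 0.167 and 0.413 (WT) and 0.440 and 0.486 (GS). It fell at 3 d (-0.95 ± 0.33, edgeR adjusted p = 0.0275) and 15 d (-0.83 ± 0.33, edgeR adjusted p = 0.0489), where libraries overlapped at both times. Without WT intact replicate 2, the highest library, the 15 d value was -0.50 and the 3 d value -0.61. The 15 d call was lost in 17 alternatives, among them DESeq2, limma-voom and the fit of only the groups compared. The 3 d call was lost in DESeq2 (-0.94), and without WT intact replicate 2, GS 3 d replicate 1 (-0.77), GS intact replicate 2 (-0.84) or WT 3 d replicate 2 (-0.85). Cox7a1, a muscle form at 0.256 to 0.775 CPM over all libraries, Cox4i2, a form known from lung, at 0.984 to 2.26 CPM, and Ndufa4l2, a hypoxia-responsive relative of Ndufa4, at 0.614 to 1.48 CPM, passed at no stage. The common partners fell at 15 d: Cox4i1 (-0.16 ± 0.05), Cox7a2 (-0.26 ± 0.05) and Ndufa4 (-0.30 ± 0.05).

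Cox7a2l, whose protein has been linked to supercomplexes of complexes III and IV, had a course of its own. It read 98.2 and 101 CPM in WT and 104 and 99.7 CPM in GS intact libraries, 85.8 to 91.9 CPM at 6 h, 91.8 to 98.3 CPM at 3 d and 106 to 111 CPM at 15 d. It fell at 6 h (-0.19 ± 0.04, edgeR adjusted p = 0.00502). At 15 d the 4 libraries were above all intact ones, but the test did not pass (0.10 ± 0.04, edgeR adjusted p = 0.0503).

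**Figure D4:**
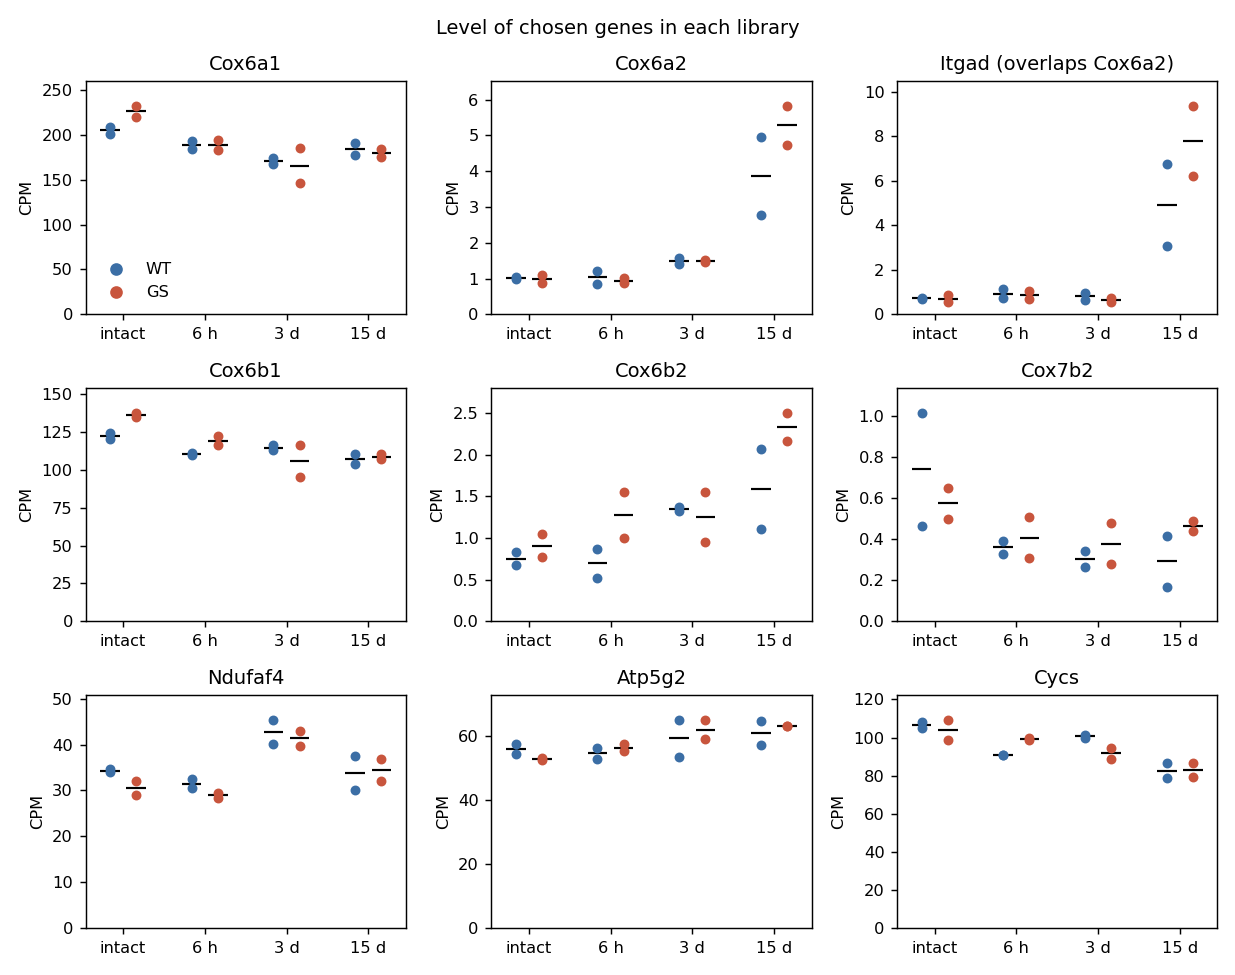
Points are single libraries (blue, WT; red, GS) and bars the means of 2 libraries, with level in CPM from 0 (vertical) and stage (horizontal), for 8 members and for Itgad, which overlaps Cox6a2. Cox6a2 is at 0.872 to 1.09 CPM in intact libraries and 2.76 to 5.82 CPM at 15 d, Cox6a1 falls from at least 201 CPM to at most 194 CPM, and Ndufaf4 stands highest at 3 d.

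Subunit c, which forms the rotor ring of ATP synthase, is made from Atp5g1, Atp5g2 and Atp5g3, whose mature proteins are identical. Atp5g2 (Gene ID 67942, chr15:102662868-102671047, GRCm38.p6) read 57.3 and 54.4 CPM in WT and 52.6 and 53.0 CPM in GS intact libraries, 53.5 and 65.1 (WT) and 64.8 and 58.9 (GS) at 3 d, and 57.1 and 64.6 (WT) and 63.2 and 63.0 (GS) at 15 d. It rose at 3 d (0.16 ± 0.06, edgeR adjusted p = 0.0478) and 15 d (0.19 ± 0.06, edgeR adjusted p = 0.0196), while WT replicate 1 stayed within the intact range at both times. The 3 d call was lost in 18 alternatives, among them limma-voom, the replicate block and the cortical marker covariate. Without WT 3 d replicate 2 it was lost as well, with a value of 0.08. The 15 d call was lost with the cortical marker covariate (0.15), and without GS intact replicate 1 (0.19), WT intact replicate 2 (0.17) or WT 15 d replicate 2 (0.14). Atp5g1 fell at 3 d (-0.14 ± 0.05, edgeR adjusted p = 0.047) and 15 d (-0.25 ± 0.05, edgeR adjusted p = 0.00136). Its 3 d call was lost in 17 alternatives, among them DESeq2, the covariate and the fit of only the groups compared. Atp5g3 fell at 15 d (-0.19 ± 0.05, edgeR adjusted p = 0.00686). Per length, the summed level of Atp5g1, Atp5g2 and Atp5g3 was 250.2 ± 5.76 RPKM in intact libraries and 238 ± 7.49 RPKM at 15 d (SD, n = 4). The Atp5g2 share of it was 27.8 to 31.5% and then 33.1 to 37.5%. The length used for Atp5g1 was 2655.5 bases, against 731 for Atp5g2 and 718.5 for Atp5g3. The sum and the share depend on these lengths and are approximate.

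Cytochrome c (Cycs, Gene ID 13063, chr6:50562563-50566569, GRCm38.p6) carries electrons between complexes III and IV and starts apoptosome assembly when it leaves mitochondria. It read 108 and 105 CPM in WT and 98.9 and 109 CPM in GS intact libraries, 90.7 and 90.9 CPM in WT and 98.5 and 99.6 CPM in GS at 6 h, 99.9 and 101 (WT) and 94.8 and 88.7 (GS) at 3 d, and 86.4 and 78.8 (WT) and 86.6 and 79.5 (GS) at 15 d. The 15 d libraries were all below the others, and those at 6 h and 3 d overlapped with the intact ones. It fell at 6 h (-0.15 ± 0.05, edgeR adjusted p = 0.0406), 3 d (-0.13 ± 0.05, edgeR adjusted p = 0.0384) and 15 d (-0.35 ± 0.05, edgeR adjusted p = 3.92e-05). The 15 d call held under every alternative run, and the 3 d call was lost in 13 of them, among them the covariate (-0.09) and GS intact replicate 2 left out (-0.09). The 6 h call was lost in 9: with the covariate (-0.14), without the 3 WT libraries of most cortical marker RNA (-0.14), and without any 1 of the libraries compared other than GS intact replicate 1, down to -0.12.

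In complex III, Cyc1, the cytochrome of the complex that hands electrons to Cycs, was at 89.7 to 97.3 CPM in intact libraries, 87.1 to 101 CPM at 3 d and 74.1 to 87.9 CPM at 15 d, and fell at 15 d (-0.20 ± 0.05, edgeR adjusted p = 0.0027). The Rieske iron-sulphur subunit Uqcrfs1 fell at 3 d (-0.16 ± 0.05) and 15 d (-0.26 ± 0.05, edgeR adjusted p = 0.000303). Complex II, which also works in the TCA cycle and has no mitochondrially encoded subunit, had 1 of 4 members that passed, at 15 d. Sdhd, its membrane anchor, fell at 15 d (-0.18 ± 0.04, edgeR adjusted p = 0.00344), with 60.3 to 63.1 CPM in intact libraries and 51.9 to 58.0 CPM at 15 d. Sdha, the flavin subunit that oxidises succinate, was at 278 to 306 CPM in intact libraries and 270 to 292 CPM at 15 d (-0.08 ± 0.04). The iron-sulphur subunit Sdhb (-0.07 ± 0.06) and the anchor Sdhc (-0.11 ± 0.05) did not pass either.

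Ndufaf4, which works with Ndufaf3 early in complex I assembly (Gene ID 68493, chr4:24898083-24905001, GRCm38.p6), was high at 3 d. It read 34.0 and 34.6 CPM in WT and 29.0 and 32.0 CPM in GS intact libraries, 32.4 and 30.4 CPM in WT and 29.4 and 28.4 CPM in GS at 6 h, 45.4 and 40.1 (WT) and 39.8 and 43.0 (GS) at 3 d, and 37.6 and 30.2 (WT) and 36.8 and 32.1 (GS) at 15 d. The 4 libraries at 3 d were above the 12 others. It rose at 3 d (0.38 ± 0.07, edgeR adjusted p = 0.000577) and did not pass at 15 d (0.08 ± 0.07). Ndufaf3, its partner, fell at both times (-0.25 ± 0.07 and -0.21 ± 0.07, edgeR adjusted p = 0.0105 and 0.0255).

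From 3 d to 15 d, 15 members fell and 2 rose, 17.9% of members against 13.9% of all genes. Falls took 7.14% and rises 6.81% of all genes. The members' median was -0.05, against 0.0026 over all genes. The 15 d libraries were all below those of 3 d for 16 members and all above for 2, against 8.11% and 8.07% of all genes. This count was 4 without GS 15 d replicate 2, 9 without WT 15 d replicate 2, and 3 when only the groups compared were fitted. Uqcrb, a matrix-side subunit of complex III, read 64.6 and 71.7 CPM in WT and 63.5 and 66.9 CPM in GS at 3 d, against 56.5 and 52.6 CPM in WT and 53.7 and 50 CPM in GS at 15 d, with no overlap (-0.33 ± 0.05, edgeR adjusted p = 0.00136). Ndufaf4 (-0.30 ± 0.07), the iron-sulphur subunit Ndufv2 of complex I (-0.25 ± 0.06), Ndufaf5 (-0.23 ± 0.06), Atp5md (-0.23 ± 0.06), Cycs (-0.21 ± 0.05), Cyc1 (-0.21 ± 0.05) and Ndufb6 (-0.21 ± 0.06) also fell. Cox6a2 rose a further 3.03-fold (1.60 ± 0.19, edgeR adjusted p = 0.000248), and Cox7a2l rose (0.18 ± 0.04, edgeR adjusted p = 0.00992). Of the 15, Cycs and Cox5a had also fallen from intact to 3 d, while Ndufaf4 came down from its 3 d rise. Between those stages the median of the mitochondrially encoded subunits was -0.18, and none of 13 passed.

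Medians of the members were below 0 in each genotype alone, and fewer members passed there. In WT, 2 members passed at 6 h, 7 at 3 d and 21 at 15 d, against 4.18%, 27.3% and 25.7% of all genes, and the medians were -0.11, -0.07 and -0.13. In GS, 7, 35 and 52 passed, against 13.8%, 35.1% and 36.9% of all genes, with medians of -0.12, -0.18 and -0.23. At 6 h the members that passed in WT both fell, where 1.62% of all genes fell and 2.57% rose, and in GS 6 fell and 1 rose, where 6.37% of all genes fell and 7.42% rose. In both directions together, the shares of members in WT were 2.11%, 7.37% and 22.1%, below the background. In GS they were 7.37%, below it, at 6 h, 36.8%, near it, at 3 d and 54.7%, above it, at 15 d. In the lower direction alone, WT had 2.11% of members at 6 h, 6.32% at 3 d against 12.5% of all genes, and 19 of 95 members at 15 d against 11.4%. GS had 6.32% at 6 h, 35.8% at 3 d against 16.4% of all genes, and 51.6% at 15 d against 17.5%. Named falls in WT were Atp5j2 (-0.31 ± 0.08) and Atp5mpl (-0.28 ± 0.07) at 6 h, Cox6a1 (-0.26 ± 0.09), Cox8a (-0.24 ± 0.08) and Ndufs4 (-0.21 ± 0.07) at 3 d, and Cox7b2 (-1.36 ± 0.48), Ndufaf2 (-0.44 ± 0.15) and Cycs (-0.37 ± 0.07) at 15 d. In GS they were Cox8a (-0.30 ± 0.08), Ndufa6 (-0.27 ± 0.07) and Ndufa8 (-0.24 ± 0.07) at 6 h, Ndufs7 (-0.51 ± 0.12), Cox8a (-0.48 ± 0.08) and Ndufaf8 (-0.46 ± 0.15) at 3 d, and Cox5a (-0.45 ± 0.06), Ndufs5 (-0.41 ± 0.11) and Cox7b (-0.40 ± 0.07) at 15 d. Cox6a2 rose in both at 15 d, by 1.91 ± 0.28 in WT and 2.42 ± 0.28 in GS. Of the falls named in WT, those of Atp5j2 and Atp5mpl at 6 h were lost in 12 and 10 alternatives. At 3 d Cox8a was lost in 16, Cox6a1 in 11 and Ndufs4 in 6, and at 15 d Cox7b2 in 14 and Ndufaf2 in 5.

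These counts moved with single libraries. Without GS 3 d replicate 2 the GS count at 3 d was 6, and without GS intact replicate 1 or 2 it was 11 or 19. At 15 d the GS count was 34 and 23 without GS 15 d replicate 1 and 2 and 26 without GS intact replicate 1. The WT count at 15 d was 4 without WT 15 d replicate 2, 7 and 6 without WT intact replicate 1 and 2, and 6 with the 3 cortical-marker-rich WT libraries left out. At 3 d the WT count was 0 without WT 3 d replicate 1 and 1 without either WT intact library. At 6 h, it was 0 in WT without any 1 of the libraries compared, and 0 to 2 in GS.

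No member passed in edgeR between the genotypes at any stage, averaged over stages, or in the GS response minus the WT response. Of all genes, 0.0319% passed between intact groups, and the share was 0.0213% for 6 h, 0.0106% for 3 d, 0.00532% for 15 d and 0.0106% on average, and 0.0159% passed for the difference in response at 6 h, with 0.00% at 3 d and 15 d. At an unadjusted p under 0.05, edgeR had 5 members between intact groups, 8 for 6 h, 6 for 3 d, 2 for 15 d and 12 averaged over stages, and 4, 8 and 1 for the differences in response. As shares of members these were 5.26%, 8.42%, 6.32%, 2.11% and 12.6%, against 10.8%, 6.78%, 7.92%, 4.6% and 9.5% of all genes. For the responses they were 4.21%, 8.42% and 1.05%, against 9.30%, 9.82% and 5.33%. DESeq2 and limma-voom also had 0 members in these 8 comparisons at an adjusted p under 0.05. The larger counts in GS are therefore not shown to be a difference between the genotypes.

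The medians between genotypes (GS minus WT) were 0.05 between intact groups and 0.05 for 6 h, -0.07 for 3 d and -0.05 for 15 d, and -0.00080 on average. For the response, the median of GS minus WT was -0.0010 at 6 h, -0.10 at 3 d with 72 of 95 members below 0, and -0.09 at 15 d with 75 below 0. Without GS 3 d replicate 2 the 3 d values were 0.01 for the genotype and -0.02 for the response, and without GS 3 d replicate 1 they were -0.13 and -0.16. Members with the smallest adjusted p were Cox5a (0.19 ± 0.06, edgeR adjusted p = 0.325) and Ndufa1 (0.24 ± 0.10, edgeR adjusted p = 0.401) in intact striatum, and Ndufb4 (-0.16 ± 0.04, edgeR adjusted p = 0.254) and Ndufab1 (-0.11 ± 0.03, edgeR adjusted p = 0.339) averaged over stages. For the response they were Ndufaf3 at 6 h (0.42 ± 0.15), Cyc1 at 3 d (0.25 ± 0.09) and Cox5a at 15 d (-0.26 ± 0.09), with edgeR adjusted p = 0.393, 0.456 and 0.908.

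Within each complex the levels per transcript length spanned a wide range. Of the 36 complex I members with a length, Ndufb9 was highest, at 145 RPKM (means of 16 libraries). Ndufab1, which also serves as the acyl carrier protein, was the lowest of these, at 14.6 RPKM. Ndufb4b and Ndufb4c had no length and were not ranked. Highest and lowest in complex IV were Cox8a at 455 and Cox7b2 at 0.809 RPKM, and in complex V Atp5b at 414 and Atp5g1 at 26.6 RPKM. In complex III they were Uqcrh at 189 and Uqcrq at 43.5 RPKM, and in complex II Sdha at 99.2 and Sdhc at 19.5 RPKM. The assembly factors ran from 6.45 RPKM for Ndufaf6 to 21.2 RPKM for Ndufaf5. Lengths are medians of annotated transcripts, so these values are approximate. The place of Atp5g1 rests on a length of 2655.5 bases.

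Other genes of mitochondrial energy metabolism were lower at 15 d as well. Of the 13 mitochondrially encoded subunits none passed at 6 h or 3 d and 8 fell at 15 d (medians -0.10, -0.04 and -0.21), among them ND3 (-0.32 ± 0.11), ND2 and ND1 of complex I. ND1 was at 12090 to 15220 CPM in intact libraries and 10430 to 13730 CPM at 15 d, with overlap. Of 32 measured assembly factors of complexes II to V, 4 fell and 2 rose at 6 h, 15 fell at 3 d and 19 at 15 d (medians -0.01, -0.16 and -0.24). The complex II assembly factor gene Sdhaf1 was at 10.7 to 11.8 CPM in intact libraries and 6.23 to 7.85 CPM at 3 d (-0.62 ± 0.08, edgeR adjusted p = 2.5e-05). Coa7, a complex IV assembly factor, rose at 6 h (0.56 ± 0.09) and fell at 15 d (-0.34 ± 0.09).

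Among 19 genes of the TCA cycle and pyruvate dehydrogenase none passed at 6 h, 6 fell and 1 rose at 3 d, and 12 fell and 1 rose at 15 d (median -0.18), the riser at both times being Suclg2. The mitochondrial ribosome list had 9, 18 and 31 of 78 genes that fell at 6 h, 3 d and 15 d, and 0, 3 and 1 that rose. Of all genes, 9.73%, 23.1% and 23.7% fell at these stages, and 11.4%, 23.4% and 23.5% rose. Of 16 biogenesis regulators, 1 fell at 6 h, 7 fell and 3 rose at 3 d, and 7 fell and 1 rose at 15 d. Pprc1, a coactivator related to PGC-1alpha, was the one that fell at 6 h (-0.21 ± 0.06), and it rose at 3 d (0.44 ± 0.06, edgeR adjusted p = 3.74e-05) and 15 d (0.61 ± 0.06, edgeR adjusted p = 2.06e-06). Gabpa, an ETS-family factor, rose at 3 d (0.30 ± 0.07, edgeR adjusted p = 0.00222) and did not pass at 15 d (0.17 ± 0.07), and Yy1 rose at 3 d (0.13 ± 0.05, edgeR adjusted p = 0.0288). Among those that fell was Ppargc1a, the coactivator PGC-1alpha, at 51.2 to 62.0 CPM in intact libraries and 41.0 to 50.5 CPM at 15 d (-0.29 ± 0.08, edgeR adjusted p = 0.00655). Nrf1, whose motif was searched above, passed at no stage (-0.05 ± 0.06 at 15 d). Glycolysis genes fell in 5 of 18 at 3 d and 12 of 18 at 15 d, and 1 rose, Hk2, the inducible hexokinase, at 2.15 to 3.37 CPM in intact libraries and 7.54 to 16.04 CPM at 15 d (2.11 ± 0.17, edgeR adjusted p = 4.75e-07).

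Cytosolic ribosome genes went the opposite way after 6 h. Without the 10 S6 kinase symbols that the list's letters also catch, 6 of 88 fell at 6 h and none rose, 61 rose and 1 fell at 3 d, and 70 rose and none fell at 15 d, with medians of -0.09, 0.22 and 0.30. Over all genes the medians were -0.0028, -0.02 and -0.02.

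**Figure D5:**
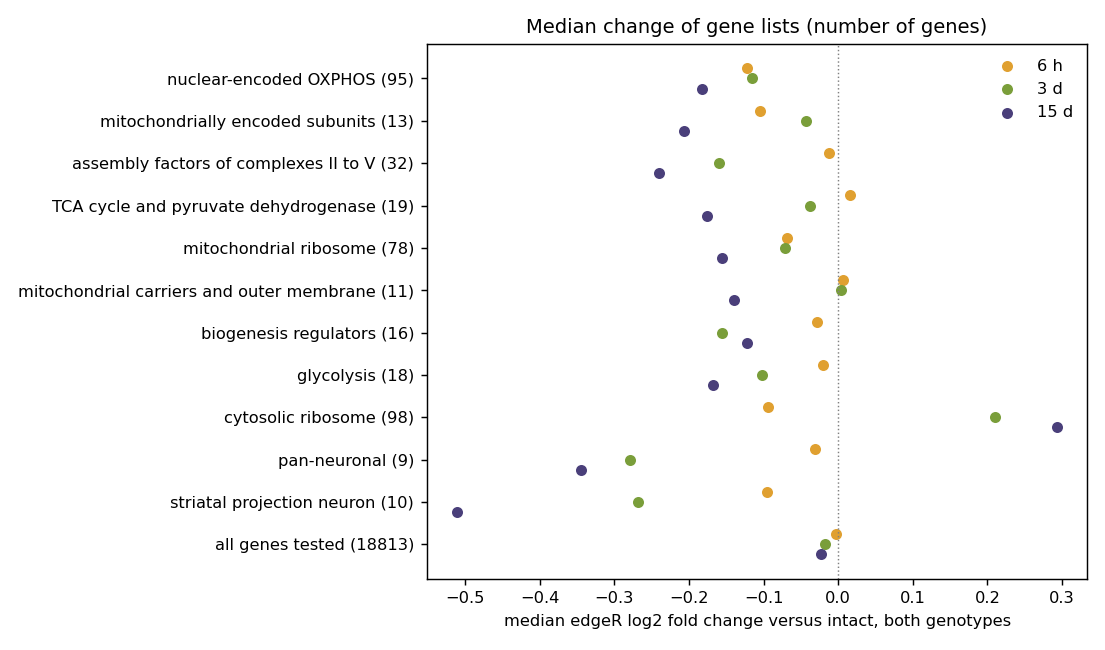
Points are the median edgeR log2 fold change of each gene list against intact, over both genotypes (horizontal), at 6 h, 3 d and 15 d, with the number of genes in brackets. The nuclear-encoded set lies at -0.12, -0.12 and -0.18 and all genes near 0, while the cytosolic ribosome list, drawn with its S6 kinase symbols, is above 0 at 3 d and 15 d and neuronal lists lie lowest at 15 d.

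Cell type markers also changed after injury, with courses that differed between lists and stages. All 9 pan-neuronal markers fell at 15 d, 6 at 3 d and 2 at 6 h (medians -0.34, -0.28 and -0.03), and their summed level was 5415 to 5705 CPM in intact libraries, 5331 to 5528 CPM at 6 h, 4496 to 5313 CPM at 3 d and 4044 to 4608 CPM at 15 d. Of 10 striatal projection neuron markers 3, 6 and 9 fell and 1 rose at 6 h, 3 d and 15 d, with 8282 to 10900 CPM in intact and 6360 to 6973 CPM in 15 d libraries. Microglia and macrophage markers summed to 276 to 295 CPM in intact libraries, 193 to 209 CPM at 6 h, 566 to 1162 CPM at 3 d and 782 to 1837 CPM at 15 d, with 9 of 9 that rose at 3 d and 15 d and 2 that fell at 6 h. Astrocyte markers rose in 5 of 6 at 3 d and 15 d, and oligodendrocyte markers in 5 of 6 at 15 d. Erythrocyte markers summed to 3.34 to 5.82 CPM in intact libraries, 27.7 to 58.9 CPM at 6 h, where 4 of 4 rose, 2.84 to 11.6 CPM at 3 d and 1.66 to 10.7 CPM at 15 d. At 6 h, 2 of 5 endothelial markers fell, with 59.8 to 89.8 CPM in intact and 51.8 to 66.2 CPM in 6 h libraries, and 3 of the 5 rose at 3 d. Of the pericyte and smooth muscle markers 4 of 7 fell at 6 h, from 112 to 126 CPM in intact libraries to 88.5 to 96.7 CPM. Choroid plexus and ependymal markers summed to 55.9 to 409 CPM in intact libraries, GS replicate 1 being the highest, and to 71.4 to 297 CPM in injured ones. The part of cell makeup in the members' decrease was not tested. With a cortical marker covariate 30, 28 and 62 members passed at 6 h, 3 d and 15 d, against 30, 42 and 64 without it.

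Some members share sequence with other genes. By GENCODE exons, 26 members overlap another gene, and 19 overlapping partners were in the count table. Apart from Itgad, partners that passed at 15 d were Tmco6, Impdh2, Ino80dos and Mrpl36, beside Ndufa2, Ndufaf3, Ndufs1 and Ndufs6. Impdh2 rose (0.31) where Ndufaf3 fell. A processed copy of Ndufs5, named Ndufs5-ps, held 1684 to 2352 counts per library, and reads may be shared with Ndufs5 itself. Ndufb4, Ndufb4b and Ndufb4c are near copies of one another, and their separate values are uncertain. Ndufb4 fell at 15 d (-0.16 ± 0.05, edgeR adjusted p = 0.0218), and the others did not pass (-0.14 ± 0.15 and -0.13 ± 0.14).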

How the data were processed

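The deposited file is a table of read counts per gene in 16 libraries, whole numbers that the authors left unnormalized. Per the labels' protocols, a TruSeq RNA kit was used for the libraries. Per the submitters' processing notes, FastQC 0.11.7 and the mm10 build were used, and an aligner, a counter and a strand setting are not named. Columns named NT were taken as WT, the remaining genotype. Counts were fitted in edgeR 4.0.16 (R 4.3.3) with TMM factors (0.947 to 1.03), its default low-count filter (644 genes removed, 18813 tested), 1 coefficient per group and the robust quasi-likelihood test, with Benjamini-Hochberg adjustment. Standard errors were derived from its F statistics. The common biological coefficient of variation was 10.1%, with 8 residual degrees of freedom. The fit was tested on simulated data. RPKM used median GENCODE transcript lengths. DESeq2 1.42.0 and limma 3.58.1 (voom) were alternatives. The members, gene lists and motifs were chosen with earlier results of these data known. Named genes are those with the largest passing changes in each comparison, isoform partners, level extremes and complex II and cytochrome genes. The core subunit groups, the overlap partners and some genes of other lists were named after their values were seen. No library was a repeat of another: between replicates the chi-square of the counts was 9.44 to 31.7 times its degrees of freedom.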

Additional observations from a re-analysis of the deposited data

How the results depend on the processing

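Directions of all counted medians and named changes stayed the same under the alternatives run, except where single libraries at 3 d moved a genotype median through 0. The covariate and the fit without 3 WT libraries were chosen after seeing the data. Counts of members that passed moved by over 1.5 times in these fits, and the cause was not tested. DESeq2 gave 13 for GS at 6 h and 5 for WT at 6 h. RLE size factors gave 4 for WT at 3 d. The cortical marker covariate gave 2 for WT at 3 d and 1 for WT at 6 h, and limma-voom 1 for WT at 6 h. With only the compared groups fitted (fewer samples), counts were 13 for GS at 3 d, 21 for GS at 6 h, 7 for WT at 15 d, 2 for WT at 3 d, 8 for WT at 6 h and 3 for 15 d versus 3 d. Without the 3 WT libraries (fewer samples) they were 3 for GS at 6 h, 6 for WT at 15 d, 1 for WT at 3 d, 0 for WT at 6 h, and 39, 26 and 2 for both genotypes at 15 d, 3 d and 6 h.

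Leaving out each library gave 5 to 35 members at 6 h, 23 to 49 at 3 d and 49 to 71 at 15 d over both genotypes, 4 to 18 for 15 d versus 3 d, 0 to 3, 0 to 8 and 4 to 28 in WT, and 0 to 19, 6 to 49 and 23 to 61 in GS at 6 h, 3 d and 15 d. Genotype and response comparisons gave 0 throughout. With the replicate block, counts over both genotypes were 31 at 6 h, 40 at 3 d and 63 at 15 d. Same-numbered libraries showed no strong shared deviation (correlations -0.157 to 0.352, median 0.0237, over 28 pairs of groups). This cannot exclude a pairing by number with a small effect. Of 95 named calls, 39 were lost without the 3 WT libraries, 18 with only the compared groups, 15 with the covariate, 7 in limma-voom and 4 in DESeq2. With 2 libraries a group, the median standard error of a single member was 0.06 over both genotypes. Between genotypes it was 0.08 at each stage and 0.04 averaged over stages, and it was 0.115 for each difference in response.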
